A study of Mus musculus with 32 samples.

Results

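The genes described here are 8 RNA-binding proteins that set which stored messages of the oocyte are translated: the cytoplasmic polyadenylation element binding proteins Cpeb1, Cpeb2, Cpeb3 and Cpeb4, the germ cell protein Dazl, the Pumilio protein Pum2, and the Musashi proteins Msi1 and Msi2. They were chosen by symbol through their NCBI gene identifiers, and all 8 were found among the 37441 genes of the count table. All 8 also passed the filter on low counts that left 19003 genes for testing.

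RNA was sequenced from oocytes of female mice of 3 kinds, the inbred strains B6 and D2 and the B6xD2 F1 hybrid, aged 8 to 12 weeks. Oocytes at the germinal vesicle stage (GV) still have an intact nucleus and rest in the first meiotic prophase, and those at metaphase II (MII) have matured and await fertilization. The 32 libraries, each a pool of 9 to 20 oocytes from 1 mother, fell into 6 groups: for GV there were 5 from B6, 5 from D2 and 6 from F1 females, and for MII 6 from B6, 5 from D2 and 5 from F1. The zona pellucida was removed from the oocytes of every group, GV oocytes alone were collected in medium with IBMX (an inhibitor of phosphodiesterases that holds the meiotic arrest), and in every group 3 libraries belonged to batch 1 and the other 2 or 3 to batch 2, run on another sequencer model.

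A growing oocyte makes and stores messenger RNA, and transcription then stops until after fertilization. During maturation the proteome is therefore set by which stored messages are translated and which are destroyed. Proteins bound to elements in the 3′ UTR decide much of this: CPEB proteins bind a U-rich cytoplasmic polyadenylation element (CPE) and can either hold a message silent or, after phosphorylation, drive lengthening of its poly(A) tail, while DAZL, Pumilio and Musashi proteins bind their own elements, often on the same messages. The values below are RNA levels, and neither protein nor translation was measured.

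The regulators are themselves encoded by stored messages, so the 3′ ends of their own transcripts were read for the same elements. The longest complete coding transcript of each gene in GENCODE vM21 (GRCm38) was used, and the last 300 bases of its 3′ UTR were searched on the sense strand only. A CPE was taken as TTTTAT or TTTTAAT, and a poly(A) signal, which directs cleavage and tailing a short way downstream, as AATAAA or ATTAAA. One CPE in each of 6 members, the one nearest the annotated end, is shown with its surroundings, 30 bases in all. Distance to the poly(A) signal is part of how a CPE is defined, but the search used the letters alone and set no such distance. Capitals mark the CPE and any poly(A) signal in the stretch.
Cpeb1: cttgacttttctTTTTAATttaacgattac
Cpeb2: taatttagtttaTTTTATtgttatcttcca
Cpeb3: tacttggAATAAAttaaTTTTATgatgcta
Cpeb4: gtaattcattTTTTATTAAAgtcattttca
Msi1: gTTTTATtttgttttaaattcctAATAAAt
Msi2: aaTTTTATatttgtattttcaAATAAAtaa

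All 6 stretches lie in the 3′ UTR within the last exon. Their positions in GRCm38 are chr7:81347257-81347286 on the minus strand for Cpeb1, chr5:43289554-43289583 on the plus strand for Cpeb2, and chr19:37021511-37021540 on the minus strand for Cpeb3. The stretch of Cpeb4 is at chr11:31935408-31935437 on the plus strand, that of Msi1 at chr5:115455656-115455685 on the plus strand, and that of Msi2 at chr11:88339473-88339502 on the minus strand. In Msi1 the CPE starts 42 bases before the annotated end and stands just ahead of the signal. The CPE of Cpeb4 starts 217 bases before the end and overlaps an ATTAAA, so the run of capitals there is both elements joined. In Cpeb3 an AATAAA stands ahead of the CPE, and in Msi2 one follows it. The CPE shown starts 249 bases before the end in Cpeb1, 159 in Cpeb2, 233 in Cpeb3 and 119 in Msi2. The signal nearest the end starts 20 bases before it in Cpeb1, Msi1 and Msi2, 23 in Cpeb2, 28 in Cpeb3 and 19 in Cpeb4. Among the stretches shown, only that of Msi1 holds this last signal, and the signals in capitals for Cpeb3, Cpeb4 and Msi2 lie further upstream.

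Counted in this window, Cpeb2 held 5 CPEs, Msi1 and Msi2 held 2 each, and Cpeb1, Cpeb3 and Cpeb4 held 1 each, while none was found in Dazl or Pum2. Of the 16196 genes with a 3′ UTR of at least this length, 36.1% held a CPE in the same window. Over the whole 3′ UTR every member had some, from 4 in Cpeb1, whose 3′ UTR is 1315 bases, to 24 in Cpeb2, whose 3′ UTR is 3778 bases. A poly(A) signal was found in the window of all 8 and in 84.2% of all genes. The Pumilio element TGTANATA was in none of the 8 windows, against 9.6% of genes. A DAZL element, taken as TTTGTTT, was in the window of Msi1 alone, just after the CPE shown, against 14.4% of genes. Musashi elements, taken as ATAGT with either A or G in the leading place and with an extra T allowed before the inner A, were in the windows of Cpeb2, Cpeb4, Dazl, Pum2 and Msi2, against 39.6% of genes. Over the whole 3′ UTR every member had DAZL elements, from 1 in Cpeb1 and Dazl to 17 in Msi2. Every member also had Musashi elements there, from 1 in Msi1 to 14 in Cpeb4. Pumilio elements were there in all members but Cpeb4 and Dazl, with the most, 3, in Msi2. Shares of all genes were not counted over whole 3′ UTRs. These are letter matches at annotated ends. Which 3′ ends these oocytes use was not measured.

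Library sizes ran from 18.7 to 39.7 M reads, with a median of 28.1 M. The oocyte marker list (15 genes, among them the zona proteins and Gdf9) summed to between 8604 and 13942 reads per M, here CPM, in every library. Of the 14 tested, 7 were lower in MII, with log2 differences of -2.155 for Zp3 and -1.771 for Zp2. Another 4 were higher, with 1.073 for Oosp1. Somatic RNA differed by stage as well. The 25 granulosa and cumulus markers summed to 220 to 4098 CPM in GV libraries and 173 to 273 CPM in MII libraries, and 17 of the 23 tested were lower in MII and 2 higher. Foxl2, a defining granulosa transcription factor, was at 0 in all 16 MII libraries. Of 11 markers of stroma, endothelium and blood, 9 were lower in MII and 1 higher, with sums of 18.5 to 404 CPM in GV and 31.6 to 78.1 CPM in MII, and 3 of them, Lum and Hbb-bs included, were at 0 in every MII library. In 3 GV libraries, 1 of each kind of female and all of batch 2, the mean log2 level of the granulosa list lay within the MII range. In pooled samples such as these, fewer cells of a type and less RNA per cell cannot be told apart, and a CPM is a share of a library, so it does not show RNA per oocyte.

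In GV, Cpeb1 and Dazl were the most abundant members for their length. Divided by the median length of the gene's complete coding transcripts in GENCODE vM21, Cpeb1 stood at 275 ± 22.0 (SD, n = 5) CPM per kilobase in B6 GV, 289 ± 13.3 (n = 5) in D2 GV and 297 ± 25.0 (n = 6) in F1 GV. Dazl came second in GV, at 135 ± 35.4 in B6, 115 ± 30.4 in D2 and 95.3 ± 19.9 in F1. In MII the order of the leading pair was the opposite: Dazl stood at 157 ± 21.9 (n = 6), 158 ± 33.1 (n = 5) and 133 ± 27.1 (n = 5), and Cpeb1 at 113 ± 10.3 in B6, 92.0 in D2 and 78.9 ± 8.60 in F1. Per kilobase, Cpeb1 was above Dazl in 16 of 16 GV libraries and in 1 of 16 MII libraries, or 0 of 16 with the longest transcripts.

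Cpeb4, Cpeb3, Pum2 and Msi2 came next on this scale. Their group means lay between 24.0 CPM per kilobase, for Msi2 in F1 MII, and 81.2, for Cpeb4 in D2 MII. In MII Cpeb4 was within the SDs of Cpeb1 in D2 and in F1, where it stood at 75.4 ± 21.9. Cpeb3, Pum2 and Msi2 were within their SDs of each other in B6 GV, at 44.8 ± 15.2, 32.8 ± 4.90 and 50.5 ± 24.9. The rank of Msi2 depends on the length used, since its transcripts run from short forms to 6436 bases: with the longest transcript it fell to 14.5 in B6 GV and was last of these 4 in every group. Cpeb2 and Msi1 were the lowest members on this scale in every group. Cpeb2 stood at 0.588 to 1.22 CPM per kilobase and Msi1 at 0.386 to 1.28, and which of the pair was lower varied by group. In CPM without regard to length, the mean of Cpeb1 over the 32 libraries, 468, was above that of 98.0% of tested genes, and the mean of Msi1, 2.32, was above that of 38.9%. For Cpeb2 the mean, 6.56, was above that of 52.0%.

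**Figure D1:**
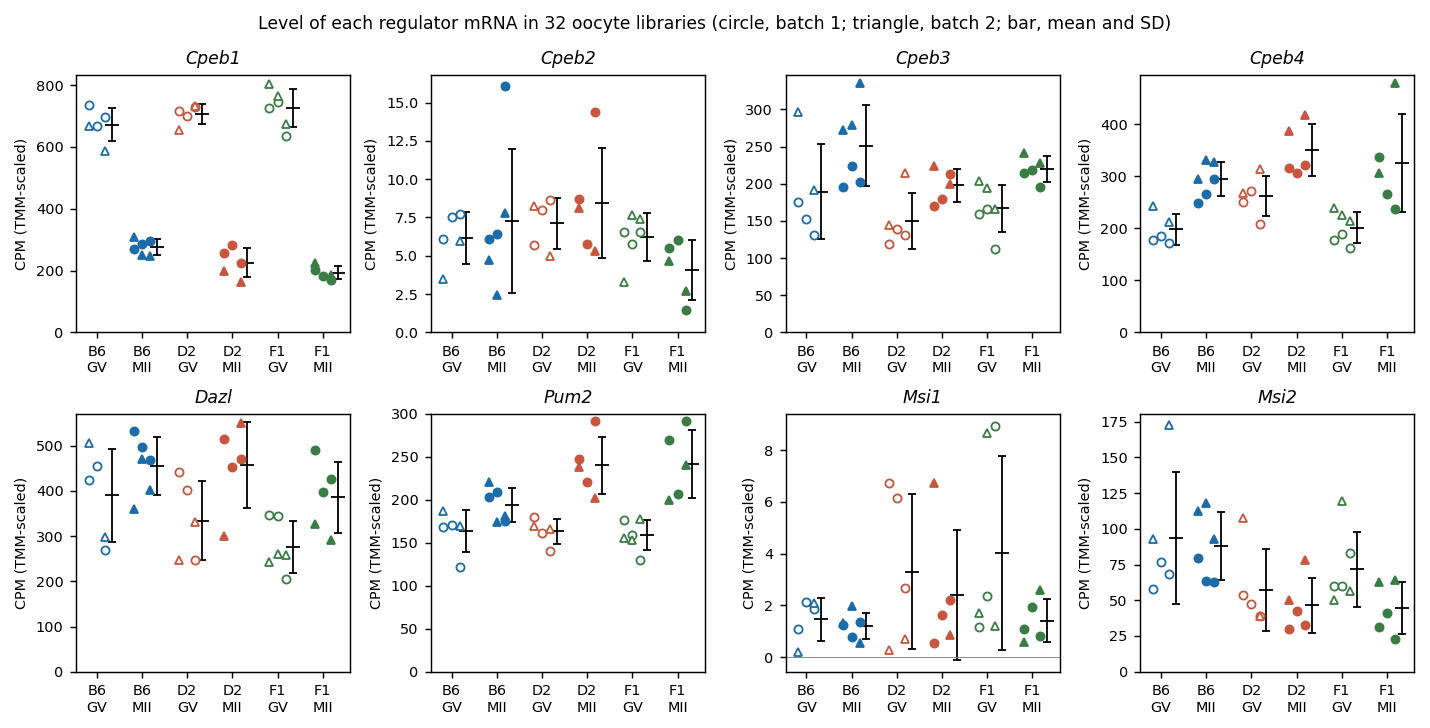
Level of each regulator in the 32 libraries, in CPM scaled by TMM (vertical axes, each from 0 or just below), by group (horizontal axis). Open symbols are GV and filled symbols MII libraries, circles batch 1 and triangles batch 2, and black bars the mean and SD; the 16 MII libraries of Cpeb1, at 164 to 309 CPM, lie below its 16 GV libraries, at 589 to 802 CPM.

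The first comparison asked how the messages of these regulators differ between GV and MII oocytes. Cpeb1, the founding member of the family and the main activator of cytoplasmic polyadenylation in maturing oocytes, had the largest stage difference of the 8 and was lower in every MII library. In the 5 B6 GV libraries it stood at 735, 669, 697, 668 and 589 CPM, and in the 6 B6 MII libraries the lowest, median and highest values were 246, 279 and 309 CPM. The 5 D2 GV libraries gave 717, 701, 730, 654 and 733 CPM, and the 5 D2 MII libraries 258, 281, 223, 197 and 164 CPM. In F1 GV the lowest, median and highest of 6 libraries were 636, 736 and 802 CPM, against 201, 183, 169, 224 and 187 CPM in the 5 F1 MII libraries. No MII library reached any GV library of its own or another kind of female.

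By edgeR's quasi-likelihood test over all 19003 genes with Benjamini-Hochberg adjustment, Cpeb1 was 3.06-fold lower in MII as a mean of the 3 kinds of female (log2 difference -1.62 ± 0.06 SE, adjusted p = 6.06e-21). It fell 2.41-fold in B6 (-1.27 ± 0.10), 3.16-fold in D2 (-1.66 ± 0.11) and 3.78-fold in F1 (-1.92 ± 0.11). The fall was as large within batch 1 (-1.59 ± 0.07) and within batch 2 (-1.75 ± 0.09), and with the granulosa marker level as a covariate (-1.72 ± 0.10). Every setting run and every library left out kept this call.

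Across the 8 regulators the mean stage difference passed the threshold of adjusted p under 0.05 for 6 genes, 4 of them higher in MII and 2 lower. Among all tested genes 22.9% were higher and 29% were lower, and the median log2 difference was -0.06. The 4 higher members were Cpeb4, Pum2, Cpeb3 and Dazl, and the 2 lower ones Cpeb1 and Msi2. Cpeb2 and Msi1 did not pass.

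Cpeb4, a CPEB protein that takes over at messages late in meiosis in frog oocytes, rose by 0.56 ± 0.06 on the log2 scale, or 1.47-fold (adjusted p = 1.21e-09). In B6 GV it stood at 177, 186, 171, 243 and 212 CPM, and in B6 MII its lowest, median and highest values were 249, 295 and 331 CPM, so those groups did not overlap. In D2 GV the values were 250, 271, 209, 267 and 314 CPM and in D2 MII 315, 307, 322, 387 and 418 CPM, where 4 of the 5 MII libraries were above every GV library. In F1 the lowest, median and highest GV values were 161, 201 and 239 CPM, and the 5 MII libraries stood at 337, 265, 236, 306 and 479 CPM. The rise passed in each kind of female, at 0.55 ± 0.10 in B6, 0.41 ± 0.11 in D2 and 0.72 ± 0.10 in F1. The D2 call ended in batch 1 alone (0.29 ± 0.14, adjusted p = 0.136), in batch 2 alone (adjusted p = 0.294), with the granulosa covariate (0.33 ± 0.13, adjusted p = 0.129) and with no batch term (adjusted p = 0.0713), and the B6 call in batch 2 alone (adjusted p = 0.118). The mean over the 3 kept its call within batch 1 (0.53 ± 0.08), within batch 2 (0.51 ± 0.10) and with the granulosa level as a covariate (0.47 ± 0.11, adjusted p = 0.00279).

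Pum2, a Pumilio repressor that acts with Nanos and deadenylases, rose by 0.47 ± 0.07 (adjusted p = 5.01e-07). It went from 163 ± 24.4 to 194 ± 19.7 CPM in B6, from 163 ± 14.5 to 240 ± 33.6 CPM in D2 and from 159 ± 17.6 to 242 ± 39.3 CPM in F1. In D2 and in F1 every MII library was above every GV library, while in B6 3 of 6 were and the difference, 0.25 ± 0.12, did not pass (adjusted p = 0.113). Within batch 2 alone the mean difference was 0.24 ± 0.09 (adjusted p = 0.0739), against 0.56 ± 0.10 within batch 1. With the granulosa covariate it was 0.42 ± 0.13 (adjusted p = 0.0201).

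Cpeb3, a CPEB protein best known from neurons, rose by 0.42 ± 0.07 (adjusted p = 1.16e-05). Its groups overlapped in each kind of female: 189 ± 64.1 against 251 ± 54.2 CPM in B6, 149 ± 37.7 against 198 ± 22.5 CPM in D2, and 167 ± 31.9 against 219 ± 17.2 CPM in F1. The call ended within batch 2 (0.21 ± 0.11, adjusted p = 0.186) and with the granulosa covariate (0.09 ± 0.12, adjusted p = 0.698), while without the 3 GV libraries of low granulosa level the value was 0.51 ± 0.07. Since granulosa level moves with stage in these libraries, the covariate cannot fully separate the 2. With it, calls over all genes also fell, from 4354 higher and 5508 lower to 1122 and 1573. What part the granulosa RNA has in this difference was not tested.

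Dazl, which germ cells need to form and which activates translation of maternal messages, rose by 0.38 ± 0.10 (adjusted p = 0.00113). It went from 390 ± 102 to 455 ± 63.3 CPM in B6, from 335 ± 88.2 to 458 ± 95.8 CPM in D2 and from 276 ± 57.6 to 386 ± 78.7 CPM in F1, with overlap in all 3. As with Cpeb3, the call ended within batch 2 (0.21 ± 0.13, adjusted p = 0.270) and with the granulosa covariate (0.06 ± 0.17, adjusted p = 0.882). The same limit on that covariate holds here, and what part the granulosa RNA has was not tested. The calls in D2 (0.46 ± 0.17, adjusted p = 0.0417) and in F1 (0.45 ± 0.16, adjusted p = 0.0319) were also lost under median-of-ratios scaling, and the first held in 17 of 32 fits that left out 1 library (adjusted p from 0.0161 to 0.237). The second was lost without F1 MII batch 1 replicate 3 or 5 or F1 GV batch 1 replicate 5 (adjusted p up to 0.135).

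Msi2, the more widely expressed of the Musashi pair, fell by 0.39 on the log2 scale (SE 0.13, adjusted p = 0.0150). Its libraries were uneven. B6 GV held 57.8, 76.5, 68.0, 92.6 and 173 CPM, and the lowest, median and highest B6 MII values were 62.8, 86.2 and 118 CPM, so the stages overlapped in B6 (-0.12 ± 0.23). In D2 the GV values were 54.0, 47.5, 38.8, 108 and 38.8 CPM and the MII values 29.6, 42.2, 32.4, 50.0 and 77.9 CPM (-0.33 ± 0.24). Only the fall in F1 passed (-0.71 ± 0.23, adjusted p = 0.0166), from a lowest, median and highest GV value of 50.2, 60.1 and 120 CPM to 31.6, 41.1, 23.2, 62.6 and 64.4 CPM in MII. Without F1 GV batch 1 replicate 5 or F1 MII batch 1 replicate 5 that call was lost (adjusted p up to 0.0651). With the granulosa covariate the direction of the mean difference turned, to 0.45 ± 0.20 (adjusted p = 0.144), and that in F1 to 0.20 ± 0.26. It was -0.51 ± 0.12 within batch 1 and -0.34 ± 0.29 within batch 2 (adjusted p = 0.450). Granulosa level and stage move together here, and what part the somatic RNA has was not tested.

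Cpeb2, a CPEB protein close to Cpeb3 and Cpeb4 in sequence, did not pass at 41 to 475 reads per library. Its mean stage difference was -0.06, with a 95% interval of -0.47 to 0.35, so a change of either sign up to those bounds cannot be told from none. Msi1, with 4 to 348 reads per library, gave -0.72 ± 0.43 (adjusted p = 0.161). It was -1.36 ± 0.39 within batch 1 (adjusted p = 0.00588) and 0.53 ± 0.67 within batch 2, and it passed when D2 MII batch 2 replicate 1 was left out (adjusted p = 0.0365) and without the 3 GV libraries of low granulosa level (-1.05 ± 0.41, adjusted p = 0.0323). Its direction turned with the granulosa covariate, to 1.49 ± 0.74 (adjusted p = 0.206).

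Within each kind of female, 3 regulators passed in B6, 2 higher and 1 lower, where 10.3% of genes were higher and 16.4% lower. In D2 5 passed, 4 higher and 1 lower, against 13.1% and 15.6% of genes. In F1 6 passed, 4 higher and 2 lower, against 14.9% and 18% of genes. The number that passed is not a test of whether the females differ.

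**Figure D2:**
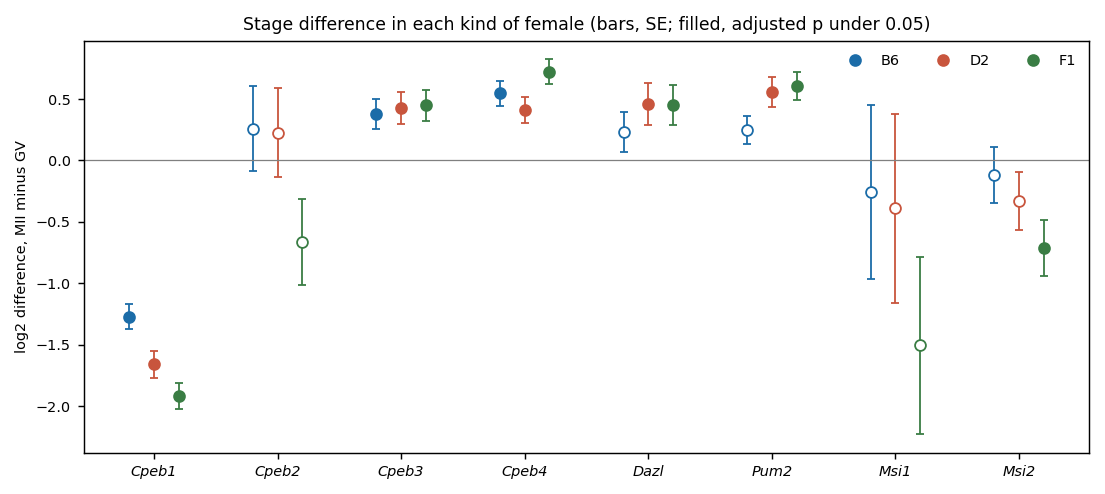
Stage difference of each regulator (vertical axis, log2 of MII over GV) in B6, D2 and F1 females, with bars of 1 SE. Filled points had an adjusted p under 0.05; Cpeb1 lies at -1.27, -1.66 and -1.92 and Cpeb4 at 0.55, 0.41 and 0.72.

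Whether the stage difference itself differed between females was tested directly. None of the 8 passed between D2 and B6, where 0.105% of genes did, between F1 and B6, where 0.0105% did, or between F1 and D2, where 0.0316% did. At an unadjusted p under 0.05 stood Cpeb1 for D2 against B6, Cpeb1 and Pum2 for F1 against B6, and Cpeb4 for F1 against D2. By DESeq2, 0 passed for D2 against B6, and it was not run on the other pair. The fall of Cpeb1 was larger in F1 than in B6 by 0.65 ± 0.14 on the log2 scale (unadjusted p = 7.79e-05, adjusted p = 0.164). It was larger in D2 than in B6 by 0.39 ± 0.15 (adjusted p = 0.382), at 0.31 ± 0.17 within batch 1 and 0.80 ± 0.23 within batch 2. These comparisons share groups, so they are not independent of each other or of the stage differences above.

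**Figure D3:**
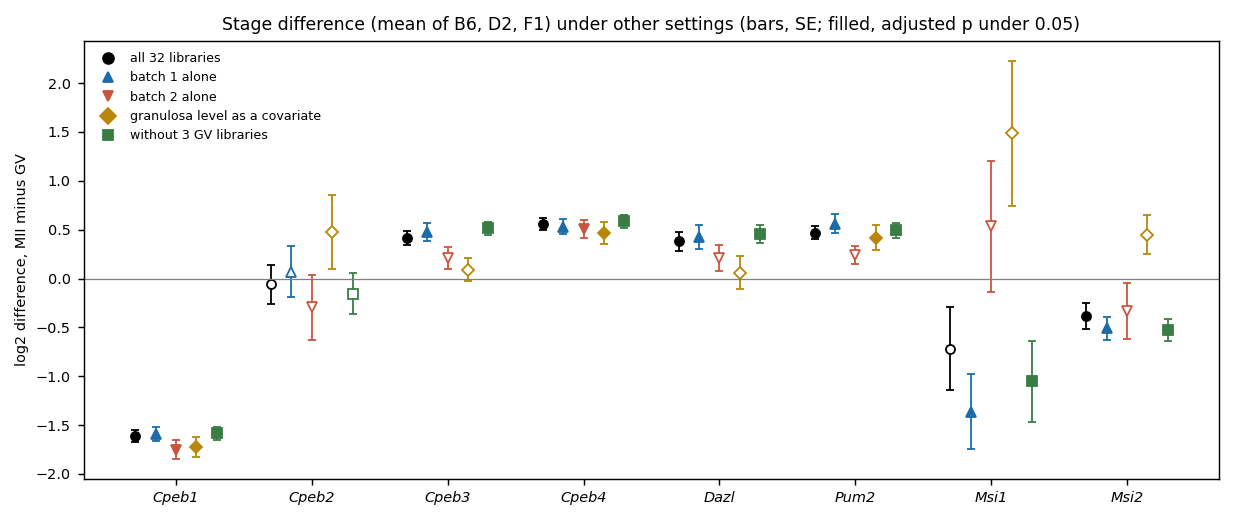
Mean stage difference of each regulator (vertical axis, log2 of MII over GV) in all 32 libraries, in each batch alone, with the granulosa marker level as a covariate, and without the 3 GV libraries whose marker level lay within the MII range. Bars are 1 SE and filled points had an adjusted p under 0.05; Cpeb1 stays between -1.75 and -1.58 and Cpeb4 between 0.47 and 0.59, while Msi2 runs from -0.53 to 0.45.

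The second comparison set the inbred strains against each other at each stage. In GV oocytes 2 of the 8 differed: Cpeb4 was higher in D2 and Msi2 lower, where 9.16% of genes were higher and 11.3% lower. In MII oocytes 4 differed: Cpeb4 and Pum2 were higher in D2, and Cpeb1 and Msi2 lower, where 13.4% of genes were higher and 13% lower. Msi2 and Cpeb4 had the same direction at both stages.

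Msi2 showed the largest strain difference that passed. In MII it stood at 46.4 ± 19.4 CPM in D2 and 88.2 ± 23.9 CPM in B6, and 4 of 5 D2 libraries were below every B6 library (-0.88 ± 0.23, adjusted p = 0.00387). The difference was -1.03 ± 0.21 within batch 1 (adjusted p = 0.00102) and -0.81 ± 0.49 within batch 2, and it passed in all 32 fits that left out 1 library. In GV it was -0.67 ± 0.24 (adjusted p = 0.0426), with 4 of 5 D2 libraries below every B6 library, and the call held in 14 of the 32 such fits (adjusted p from 0.0280 to 0.218). With the granulosa covariate the GV difference was -0.82 ± 0.19 (adjusted p = 0.00131), and without the 3 GV libraries of low granulosa level -0.58 ± 0.21 (adjusted p = 0.0608).

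Cpeb4 was 262 ± 38.3 CPM in D2 GV and 198 ± 29.7 CPM in B6 GV (0.41 ± 0.11, adjusted p = 0.00363), and 4 of the 5 D2 libraries were above every B6 library. Within batch 1 the GV difference was 0.52 ± 0.14 (adjusted p = 0.0122) and within batch 2 it was 0.38 ± 0.18 (adjusted p = 0.209). In MII it was 350 ± 49.7 against 294 ± 32.5 CPM (0.28 ± 0.10, adjusted p = 0.0365), a call kept in 25 of 32 fits that left out 1 library (adjusted p up to 0.0812) and lost without D2 MII batch 2 replicate 2, D2 MII batch 1 replicate 4, B6 MII batch 1 replicate 1 or 2, or B6 MII batch 2 replicate 1, 2 or 3. The MII difference was 0.17 ± 0.14 within batch 1 and 0.29 ± 0.16 within batch 2.

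Pum2 in MII was higher in D2 by 0.31 ± 0.11 (adjusted p = 0.0442), with 3 of 5 D2 libraries above every B6 library. This call held in 17 of 32 fits that left out 1 library (adjusted p from 0.0241 to 0.166), and the difference was 0.32 ± 0.17 within batch 1 and 0.15 ± 0.16 within batch 2, neither past the threshold. Of 11 other settings 4 kept the call. It was lost with median-of-ratios scaling (adjusted p = 0.0512, edgeR) and by DESeq2 (adjusted p = 0.0513), among others. In GV the difference between the strains was 0.00, with a 95% interval of -0.25 to 0.24.

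Cpeb1 did not pass between the strains in GV, at 671 ± 53.7 CPM in B6 and 707 ± 32.4 CPM in D2 (0.08 ± 0.11). In MII it was lower in D2, at 225 ± 46.7 against 277 ± 25.1 CPM (-0.31 ± 0.10, adjusted p = 0.0213). Within batch 1 that difference was -0.21 ± 0.12 (adjusted p = 0.228), and within batch 2 it was -0.63 ± 0.16 (adjusted p = 0.0143). It did not pass when D2 MII batch 2 replicate 1, D2 MII batch 2 replicate 2 or B6 MII batch 2 replicate 1 was left out, with the adjusted p over all 32 such fits running from 0.00790 to 0.124. Cpeb3 was lower in D2 at both stages without passing (-0.33 ± 0.13 in GV, adjusted p = 0.0709, and -0.28 ± 0.13 in MII, adjusted p = 0.0926).

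The third comparison placed the hybrid beside its parents. Against B6, none of the 8 differed in GV, where 5.5% of genes did in either direction, with only Dazl at an unadjusted p under 0.05 (-0.49 ± 0.16, adjusted p = 0.0738). In MII Cpeb1 and Msi2 were lower in F1 than in B6, where 7.36% of genes differed. Against D2, Cpeb4 was lower in F1 in GV, where 6.05% of genes differed, and none passed in MII, where 8.11% did, with Cpeb2 at an unadjusted p under 0.05 (-1.03 ± 0.36, adjusted p = 0.0761). By DESeq2, 0 passed for F1 against B6 in GV and 1 for F1 against D2 in MII. The comparisons with each parent share the F1 libraries.

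Cpeb1 in F1 MII, at 193 ± 21.0 CPM, was below B6 MII in all 5 libraries against all 6 (-0.53 ± 0.10, adjusted p = 6.81e-04), and the call held in all 32 fits that left out 1 library. Within batch 1 it was -0.66 ± 0.12 (adjusted p = 0.00189), and within batch 2 -0.41 ± 0.15 (adjusted p = 0.304). In batch 2 the B6 MII titles carry the prefix 011317 and the F1 MII titles 011017. Female and prefix cannot be told apart in that batch 2 value. Against D2 MII the difference was -0.21 ± 0.11 (adjusted p = 0.243), and the libraries overlapped. It was -0.45 ± 0.12 within batch 1, which passed (adjusted p = 0.0299), and 0.22 ± 0.17 within batch 2 (adjusted p = 0.663), the opposite direction. Msi2 in F1 MII stood at 44.6 ± 18.4 CPM, close to the 46.4 CPM of D2 (-0.07, with a 95% interval of -0.56 to 0.41), and below B6 (-0.95 ± 0.23, adjusted p = 0.00723). Cpeb4 in F1 GV was 201 ± 30.0 CPM, with -0.01 ± 0.10 against B6, and was below D2 (-0.43 ± 0.10, adjusted p = 0.00544). All calls of F1 against a parent ended within batch 2, for Msi2 at an adjusted p of 0.604 and for Cpeb4 at 0.378, and with no batch term these 2 ended at 0.0883 and 0.231. An interval that includes 0 does not show that F1 and that parent are alike.

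Against the mid-parent, the mean of the log2 levels of B6 and D2, none of the 8 passed in GV, where 0.879% of genes did, and Cpeb4 and Dazl stood at an unadjusted p under 0.05 (-0.22 ± 0.09 and -0.37 ± 0.14), with 0 passing by DESeq2. In MII 1 passed, Cpeb1, where 1.16% of genes did. It was lower in F1 by 0.37 ± 0.09 on the log2 scale (adjusted p = 0.0317). That call was kept in 25 of the 32 fits that left out 1 library, with an adjusted p between 0.00439 and 0.164. Within batch 1 the difference was -0.56 ± 0.10 (adjusted p = 0.00617) and within batch 2 it was -0.10 ± 0.14 (adjusted p = 0.994), and the call also ended with no batch term (adjusted p = 0.135). It was lost without F1 MII batch 2 replicate 2, F1 MII batch 1 replicates 3, 4 and 5, D2 MII batch 1 replicates 2 and 3, or B6 MII batch 2 replicate 1. Cpeb2 was lower in F1 MII than in the mid-parent by 0.93 ± 0.32, at 4.08 ± 1.94 CPM, and did not pass (adjusted p = 0.200).

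**Figure D4:**
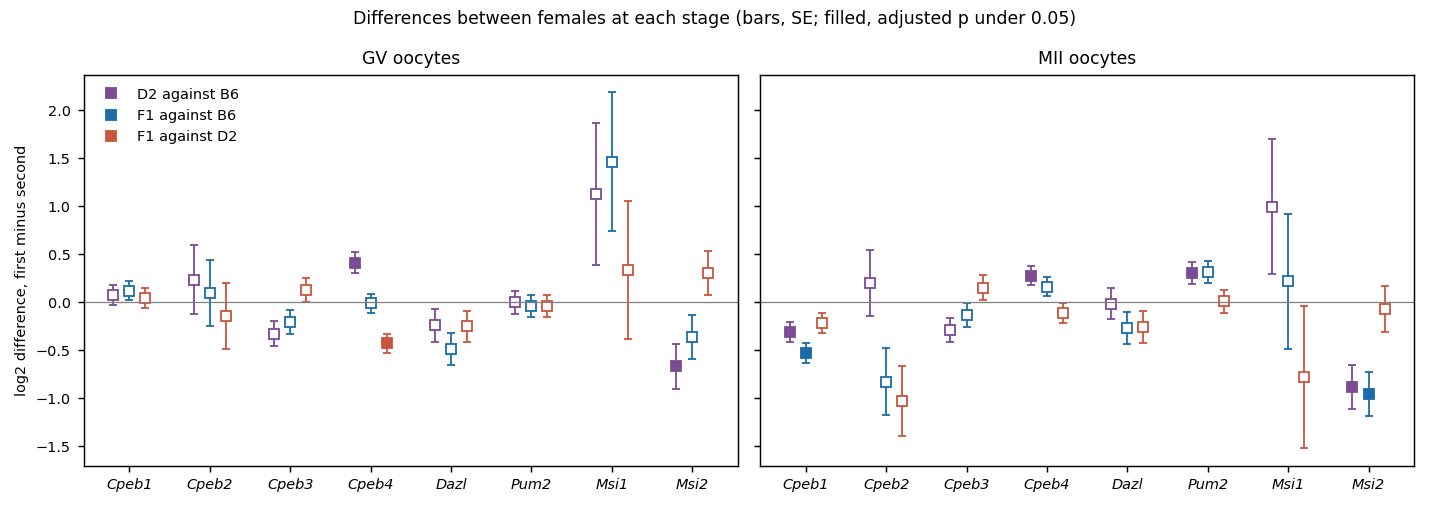
Differences between kinds of female for each regulator (vertical axis, log2 of the first over the second) in GV and in MII oocytes, with bars of 1 SE. Filled squares had an adjusted p under 0.05: Cpeb4 and Msi2 in GV for D2 against B6, Cpeb4 in GV for F1 against D2, and Cpeb1, Cpeb4, Pum2 and Msi2 in MII.

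The regulators work in complexes, and the other genes of the pathway were read from 6 lists. These lists were written with earlier results of these data known, so the counts are descriptions. A higher value in MII is a larger share of a library, and neither poly(A) tail length nor RNA per oocyte was measured. Of 18 messages known as targets of CPEB1 or DAZL in germ cells, 14 were higher in MII and 0 lower, with a median log2 difference of 0.46 beside -0.06 over all genes. Beside this and the other lists stand the 22.9% of all genes that were higher and the 29% that were lower. The deadenylase adaptor Btg4 rose by 0.69 ± 0.07, from 711 ± 168 to 1187 ± 141 CPM in B6. The decapping activator Dcp1a rose by 0.70 ± 0.06, from 1911 ± 233 to 3366 ± 794 CPM in B6. The homeobox gene Obox5 rose by 0.81 ± 0.08, with the limit that it belongs to a family of close copies among which reads may be split. With the granulosa covariate 8 of the 18 were higher and 1 was lower, where of all 19003 genes 1122 were higher and 1573 lower.

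Of 11 genes of the polyadenylation machinery, 5 were higher and 2 lower, with a median of 0.28. The poly(A) polymerases Papola (0.36 ± 0.05) and Papolg (0.36 ± 0.07) and the cleavage factor Cpsf2 (0.37 ± 0.06) rose, and the deadenylase Parn (-0.69 ± 0.09) and the cleavage factor Cpsf1 (-0.43 ± 0.16) fell. Under the granulosa covariate 1 was higher and 1 lower. Of 9 genes of the repressor complex, 3 were higher and 3 lower, with a median of -0.03. Lsm14a, a protein of silent RNP particles, rose by 0.76 ± 0.09, Eif4enif1, which encodes 4E-T, by 0.43 ± 0.05, and Lsm14b by 0.40 ± 0.08. Zar1l (-1.07 ± 0.09) and Zar1 (-0.64 ± 0.06), RNA-binding proteins of the oocyte, and the cap-binding Eif4e1b (-0.25 ± 0.07) fell. Under the granulosa covariate 2 of the 9 were higher and 2 lower.

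Of 9 tested partners and paralogs of DAZL and Pumilio, 2 were higher and 2 lower, with a median of 0.07. Dazap2 rose by 0.43 ± 0.07, and the poly(A)-binding proteins Pabpc1 (-1.64 ± 0.17) and Pabpc4 (-0.25 ± 0.07) fell, where reads of Pabpc1 may be shared with processed copies. Of 8 kinases and ligase genes that act on CPEB1, 2 were higher and 3 lower, with a median of -0.04. Cdk1, the kinase that drives entry into M phase, fell by 0.74 ± 0.09 on the log2 scale. Under the granulosa covariate 0 of the partners passed in either direction, and of the kinases and ligases 0 were higher and 1 lower. Of 16 other regulators that bind 3′ UTRs, 10 were higher and 1 lower, with a median of 0.27. Igf2bp3 (0.40 ± 0.05), Rbpms (0.40 ± 0.06) and Samd4b (0.45 ± 0.08) rose and Fxr2 fell (-1.10 ± 0.09), and with the granulosa covariate 3 of the 16 were higher and 1 lower. The largest rise among these 16, that of Samd4b, lay between those of Cpeb4 (0.56 ± 0.06) and Cpeb3 (0.42 ± 0.07), with SEs that overlap both. It was close to that of Pum2 (0.47 ± 0.07) and above that of Dazl (0.38 ± 0.10). These rises were not tested against each other.

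**Figure D5:**
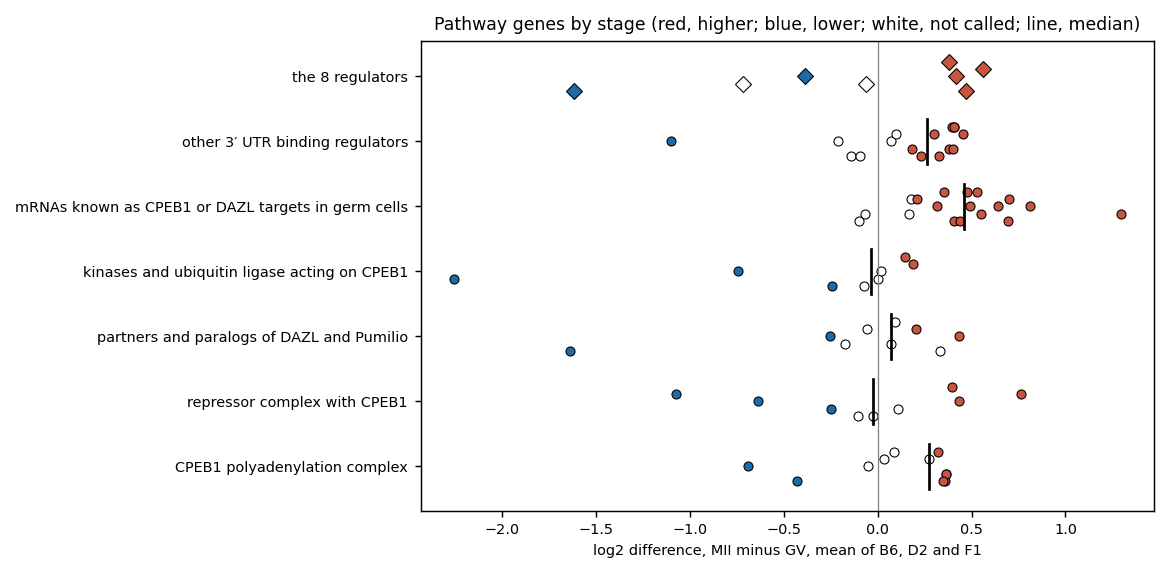
Mean stage difference (horizontal axis, log2 of MII over GV) of the genes of 6 pathway lists and of the 8 regulators (rows). Red marks are higher and blue marks lower at an adjusted p under 0.05, white marks did not pass, and vertical lines are list medians; 14 of the 18 target messages are red, and the lowest regulator is Cpeb1 at -1.62.

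Between the inbred strains some genes of these lists lay further apart than the regulators. Patl2, a repressor protein of oocytes, was higher in D2 by 1.44 ± 0.20 in GV and 1.14 ± 0.19 in MII, with group means of 54.0 ± 14.9 CPM in D2 GV and 20.0 ± 6.52 CPM in B6 GV. The RNA helicase Ddx6 was higher in D2 by 0.66 ± 0.17 in GV and 1.32 ± 0.16 in MII. The germ cell helicase Ddx4 was higher in D2 by 1.19 ± 0.18 in GV and 1.71 ± 0.17 in MII, and Khdrbs1 by 1.19 ± 0.14 and 1.12 ± 0.14. In MII each of these 4 differences was larger than that of Msi2. Of the 18 target messages, 4 were higher in D2 and 1 lower in GV, and 3 higher and 0 lower in MII. Of all genes 9.16% were higher and 11.3% lower in GV, and 13.4% and 13% in MII, so the MII count is near the background. Higher at both stages was Ccnb1, the B-type cyclin whose message CPEB1 activates (0.44 ± 0.10 and 0.41 ± 0.10).

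Genes whose levels followed those of a member most closely were read from 8877 other genes with a mean of at least 5 CPM, by Pearson's r of log2 CPM over the 32 libraries with the batch difference removed. These are descriptions, since libraries share stage, female, depth and somatic content. For Cpeb1 the nearest were Zp3, a zona pellucida protein, and the ribosomal protein genes Rpsa and Rps13, whose reads may be shared with processed copies. Its libraries form separate clusters by stage, so r is given within stages of 16 libraries: for Zp3 it was 0.29 in GV and 0.69 in MII, and for Rpsa -0.24 in GV and 0.73 in MII.

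For the other members r with the nearest gene is also given within stages. Each such gene was picked for its r over these same libraries, so the values within stages are no separate check. Cpeb3 and Vps13a, a lipid transfer protein gene, had r = 0.88 within GV and 0.71 within MII, and Cpeb4 and B4galt6, a glycosyltransferase gene, 0.86 and 0.65. Dazl and the phosphatase gene Ptp4a1 had 0.94 and 0.65, and Pum2 and the kinase gene Taok1 0.63 and 0.86. Msi2 and Tpp1, which encodes a lysosomal peptidase, had 0.81 and 0.78. Cpeb2 with Abraxas2 (0.50 and 0.81) and Msi1 with Commd1 (0.58 and 0.66) rest on low counts.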

How the data were processed

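The authors deposited raw read counts for each gene, listed by NCBI gene identifier and without normalisation. Per the submitters' processing notes, HISAT2, SAMtools, featureCounts (Subread 1.5.1) and DESeq2 1.16.1 were used with build GRCm38.p4. Strand and multi-mapping settings are not given in the sources used here. Per the labels' protocols, RNA was amplified by SPIA and sequenced as single reads of 50 nt.

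Of 37444 entries, 3 named no gene (at most 0.019% of a library). Libraries were scaled by TMM after filterByExpr on the 6 groups, and edgeR 4.0.16 (robust quasi-likelihood) was fitted to 32 libraries with group and batch as terms. Each of 13 contrasts, and the 2 stage changes of F1 against a parent added later, was adjusted by Benjamini-Hochberg over 19003 genes, two-sided. SE is the log2 difference over the square root of F. The fit was tested on simulated data.

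The members and lists were chosen with earlier results of these data known. Beside the 8 members, list genes were named by lowest adjusted p (up to 3 in a direction, at least 5 CPM, same direction in both batches), and up to 3 genes of the most similar pattern. Transcript lengths are from GENCODE, in place of the planned RefSeq. Mothers were the replicates. Alternatives were scalings, filters, batch terms, batches alone, a replicate block, a granulosa covariate, DESeq2 1.42.0, and libraries left out. Counts carry no molecular identifiers.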

Additional observations from a re-analysis of the deposited data

Results flagged for a closer look

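In 48 tests of the extreme library of a group of 5 or 6, where chance flags about 1 in 20, 3 values stood apart from the rest of their group. Cpeb3 in D2 GV batch 2 replicate 2 was 214.5 CPM, against 118.5 to 144.0 CPM in the other 4 libraries. This is 1 of the 3 GV libraries of low granulosa level, and without it Cpeb3 was lower in D2 than in B6 in GV at an adjusted p of 0.0241 (edgeR). Msi2 in D2 GV batch 2 replicate 1 was 107.5 CPM, against 38.8 to 54.0 CPM in the others, and this library had the highest granulosa marker sum of its group, 3870 CPM. Msi1 in D2 MII batch 2 replicate 1 was 6.72 CPM, against 0.538 to 2.21 CPM in the others. Its granulosa marker sum, 273 CPM, was the highest of the MII libraries, and without it the mean stage difference of Msi1 passed (adjusted p = 0.0365, edgeR). All 3 libraries are of D2 and of batch 2, and the part of batch or granulosa RNA in these values was not tested.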

How the results depend on the processing

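Main counts of regulators called were 6 for the mean stage difference, 3 in B6, 5 in D2 and 6 in F1, 2 for D2 against B6 in GV and 4 in MII. In batch 2 alone, with fewer libraries, they were 2, 1, 1 and 2 for the stage and 0 and 1 between strains, and 0 for F1 against D2 in GV and for F1 against B6 and the mid-parent in MII. In batch 1 alone they were 3 for the stage in D2, 1 and 1 between strains in GV and MII, and 1 for F1 against D2 in MII. With the granulosa covariate, 3 were called for the mean stage difference, 2 in D2 and 3 in F1, and Msi2 reversed to 0.45 in the mean and 0.20 in F1. Msi1, not called, turned to 1.49 and 0.94. With no batch term, 2 were called for the stage in D2 and 3 in F1, 0 and 1 between strains in GV and MII, 0 for F1 against D2 in GV, 1 for F1 against B6 in MII and 0 against the mid-parent. D2 against B6 in GV gave 1 with median-of-ratios scaling, no filter, DESeq2 or without the 3 GV libraries of low granulosa level, and in MII 1 with no filter. DESeq2 gave 1 for F1 against D2 in MII. Calls over all genes moved too. For the mean stage difference the main fit gave 4354 higher and 5508 lower of 19003 genes. Batch 2 alone gave 1819 and 2684 of 19097, and the granulosa covariate 1122 and 1573 of 19003. For the stage in D2 the main fit gave 2496 and 2965, and batch 1 alone 907 and 2683 of 19265. Batch 2 alone gave 175 and 594 there, and no batch term 947 and 2063. For the stage in F1 the main fit gave 2826 and 3418, batch 2 alone 301 and 511, and no batch term 1188 and 2378. For the stage in B6 the main fit gave 1957 and 3108, and batch 2 alone 653 and 731. For D2 against B6 in MII the main fit gave 2552 higher and 2467 lower. Batch 2 alone gave 1059 and 1101 there, and no batch term 1824 and 1791. The cause of these moves was not tested.

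The replicate block changed the calls to 1 for D2 against B6 in GV and 2 in MII, 1 for F1 against B6 in GV and 0 for F1 against the mid-parent in MII. It also ended the stage calls of Cpeb3 in B6 (adjusted p = 0.0521) and Dazl in D2 (0.0839). Over all genes the block gave 1659 higher and 2082 lower for D2 against B6 in GV, and 2155 and 2090 in MII. For F1 it gave 478 and 401 against B6 in GV, and 152 and 19 against the mid-parent in MII. Replicate numbers do not pair libraries by the labels, and the residuals of 59 same-numbered pairs had a median correlation of 0, with 5 over 0.1. Leaving out 1 library at a time gave 6 to 7 for the mean stage difference, 2 to 3 in B6, 3 to 5 in D2 and 4 to 6 in F1, 1 to 2 and 2 to 4 between strains in GV and MII, 0 to 1 for F1 against B6 in GV and against D2 in MII, 1 to 1 against D2 in GV, 2 to 2 against B6 in MII, and 0 to 1 against the mid-parent in MII. Scaling by median of ratios moved the median stage difference of all genes from -0.06 to -0.10. Depth limits Cpeb2 and Msi1.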

Other observations

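The level of each regulator was also compared between the batches by edgeR's quasi-likelihood test with stage and female in the model. The share of all genes that differ by batch is not given here, so no count of members is read from it. Cpeb3 (0.40 ± 0.07), Cpeb4 (0.34 ± 0.06) and Msi2 (0.70 ± 0.13) were higher in batch 2, and Dazl (-0.24 ± 0.10, adjusted p = 0.0433) was lower. Cpeb1 (-0.08 ± 0.06) and Pum2 (-0.01 ± 0.07) did not pass. Each group holds both batches in nearly equal number. Titles of batch 2 libraries carry the prefix 011017 or 011317, which is not balanced over the groups. All B6 libraries of batch 2 carry 011317, both F1 MII libraries of batch 2 carry 011017, and the other groups hold both prefixes. Within batch 2, differences between females are therefore partly or fully mixed with the prefix.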
